A study of Mus musculus with 22 samples.

Results

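Transcript levels of 10 adipogenic transcription factors and cofactors, Cebpa, Cebpb, Cebpd, Ebf1, Ebf2, Klf15, Klf9, Zfp423, Tle3 and Zbtb16, were followed in mouse interscapular brown adipose tissue (BAT). The genes were chosen by name as regulators of fat cell formation, and all 10 were found among the 55487 gene identifiers of both count tables. They and the gene lists read below were chosen with earlier results of these data known. The study asked how loss of CPEB2, an RNA-binding protein that controls translation, alters BAT, and whether extra PRDM16, a coregulator of brown fat identity, changes that in KO mice. There were 22 libraries in 6 groups, all labelled as male C57BL/6 mice from heterozygous crosses, with a global deletion of Cpeb2 in KO. The untreated cohort held 5 CPEB2-WT and 5 CPEB2-KO mice of 21 to 25 weeks that had received no virus. The paper states that food was withheld from these mice for 5 to 6 h before tissue was taken. It states no such step for the AAV mice. In the AAV cohort, 16-week-old mice received 20000000000 vector genomes of adeno-associated virus in 30 µl at 3 sites of the interscapular BAT, and tissue was taken 9 weeks later. WT and KO mice each received either AAV-GFP or AAV-PRDM16, which gave 4 groups of 3 mice (named, for example, KO + AAV-PRDM16), so that every AAV library carried an injection and a virus. The vector held 3Xflag-tagged mouse PRDM16. The promoter that drove it is not given in the sources used here.

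Fat cells form in steps that are ordered by transcription factors. Cebpb and Cebpd, basic leucine zipper (C/EBP) proteins, act early after an adipogenic stimulus and switch on Cebpa and Pparg, which then maintain each other and most genes of the mature adipocyte. Early B-cell factors prepare the chromatin at fat cell genes, and Ebf2 recruits PPARgamma to brown fat genes. Klf9 and Klf15 are Kruppel-like zinc finger factors of the later steps and are known to respond to glucocorticoids, as are Cebpd and Zbtb16. Zfp423 commits precursors to the adipocyte fate and holds back the thermogenic program in white fat. Tle3 is a Groucho-type corepressor that works with PPARgamma and opposes PRDM16. Zbtb16 (PLZF) is a BTB zinc finger factor known both in innate-like lymphocytes and in adipocytes, where a metabolic role has been described.

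The counts of a library summed to between 55320927 and 162721202 in the untreated cohort and between 61636889 and 143005309 in the AAV cohort. Levels are given as CPM, counts scaled to library size, after TMM scaling within a cohort. The cohorts are separate tables, and no test was made across them. The targeted gene Cpeb2 was at 4.33 to 5.55 CPM in KO and 10.5 to 14.0 CPM in WT libraries of the AAV cohort. In the untreated cohort it was at 7.695 to 14.3 CPM in WT and at 2.105 to 11.7 CPM in KO, and the library labelled KO replicate 1, the highest of these, was at the WT level. Prdm16 was at 23.9 to 40.2 CPM with AAV-GFP. With AAV-PRDM16 it was at 121.9, 118.9 and 45.85 CPM in WT replicates 1 to 3 and at 69.2, 127.8 and 73.6 CPM in KO replicates 1 to 3. WT + AAV-PRDM16 replicate 3 was thus little above the AAV-GFP libraries, and every comparison that uses its group includes it. In the untreated cohort Prdm16 was at 15.7 to 38.65 CPM in WT and at 12.6 to 26.1 CPM in KO, with overlap. All AAV libraries held Y-linked transcripts, but 6 untreated libraries (2 WT and 4 KO) lacked them, against the male label. Xist, a transcript of female cells, was at 0.088, 0.031, 197, 14.0 and 305 CPM in untreated WT replicates 1 to 5. In untreated KO replicates 1 to 5 it was at 219, 1.65, 178.5, 166 and 104 CPM. It was at most 0.268 CPM in the AAV cohort. Y-linked transcripts were present in 3 WT and 1 KO untreated libraries, so sex and genotype cannot be fully told apart there. Untreated WT replicates 1 and 2 carry names of another style in the study's supplementary expression table and stood apart in several factors described here. Cidea, a brown fat lipid droplet gene, was at 1078 to 1719 CPM in the AAV cohort and at 1010 to 3045 CPM in the untreated cohort. Summed skeletal muscle markers ran from 34.8 to 164.5 CPM in the AAV cohort, where the highest libraries were KO + AAV-GFP replicate 1 and WT + AAV-PRDM16 replicate 2. In the untreated cohort they ran from 69.9 to 4214 CPM in WT and from 61.3 to 8590 CPM in KO. BAT was sequenced in bulk, so fewer cells of a type and less RNA per cell cannot be told apart.

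Promoter windows from RefSeq (GRCm38.p6, 250 bases before to 50 after a start site) were found for 7 of the 10 genes, 9 windows in all, and none for Cebpd, Ebf2 and Zbtb16. They were searched on both strands for the E-box CACGTG, the glucocorticoid response element core ACANNNTGT, the palindromic C/EBP site TTGCGCAA and the D-box TTATGTAA. No match overlapped that of another motif. The E-box was in 2 windows, those of Klf15 and Tle3, against 7.15% of all 32851 windows. The other motifs were in 0 of the 9 windows, against 6.85%, 0.183% and 0.938% of all windows. Both windows with an E-box are shown as the only ones of the set that held a searched motif, on the plus strand, with the E-box in capitals.
Klf15, chr6:90462326-90462625: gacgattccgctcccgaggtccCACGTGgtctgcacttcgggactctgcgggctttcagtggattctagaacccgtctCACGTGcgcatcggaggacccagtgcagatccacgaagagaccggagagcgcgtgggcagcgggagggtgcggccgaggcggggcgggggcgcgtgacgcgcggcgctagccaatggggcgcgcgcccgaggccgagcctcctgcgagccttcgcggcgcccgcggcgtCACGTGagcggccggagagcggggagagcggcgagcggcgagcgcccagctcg
Tle3, chr9:61372116-61372415: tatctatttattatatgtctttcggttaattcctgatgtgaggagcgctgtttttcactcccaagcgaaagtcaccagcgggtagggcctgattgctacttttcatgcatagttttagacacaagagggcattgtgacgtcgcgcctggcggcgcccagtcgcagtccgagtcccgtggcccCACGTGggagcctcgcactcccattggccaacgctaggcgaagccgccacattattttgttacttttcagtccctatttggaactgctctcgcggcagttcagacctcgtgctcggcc
Counted from the start site, the E-boxes of Klf15 began at -228, -172 and -3 and that of Tle3 at -68. A match is a match of letters only.

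The factors covered a wide range of levels. Per kilobase of exon, WT + AAV-GFP libraries held Cebpa at 221 CPM per kb on average (range 201 to 254) and Cebpb at 169.9 (108 to 229), and these ranges overlapped. Klf9 followed at 28.15 (24.7 to 34.3), apart from both neighbours in the order. Ebf2 was at 10.6 (10.4 to 10.7), and the next 4, Ebf1 at 8.21, Klf15 at 6.78, Zbtb16 at 5.48 and Tle3 at 4.95 CPM per kb, each overlapped the next. Zfp423 was at 2.32 (1.94 to 2.71) and Cebpd, the lowest, at 0.718 (0.467 to 0.930). In untreated WT mice Cebpb stood above Cebpa (237 against 129 CPM per kb, with ranges of 177.9 to 321 and 92.2 to 178.5 that just met), and Cebpd reached 3.60. The coefficient of variation of a factor within a group had a median of 17.0% in the AAV cohort and 38.0% in the untreated cohort.

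**Figure D1:**
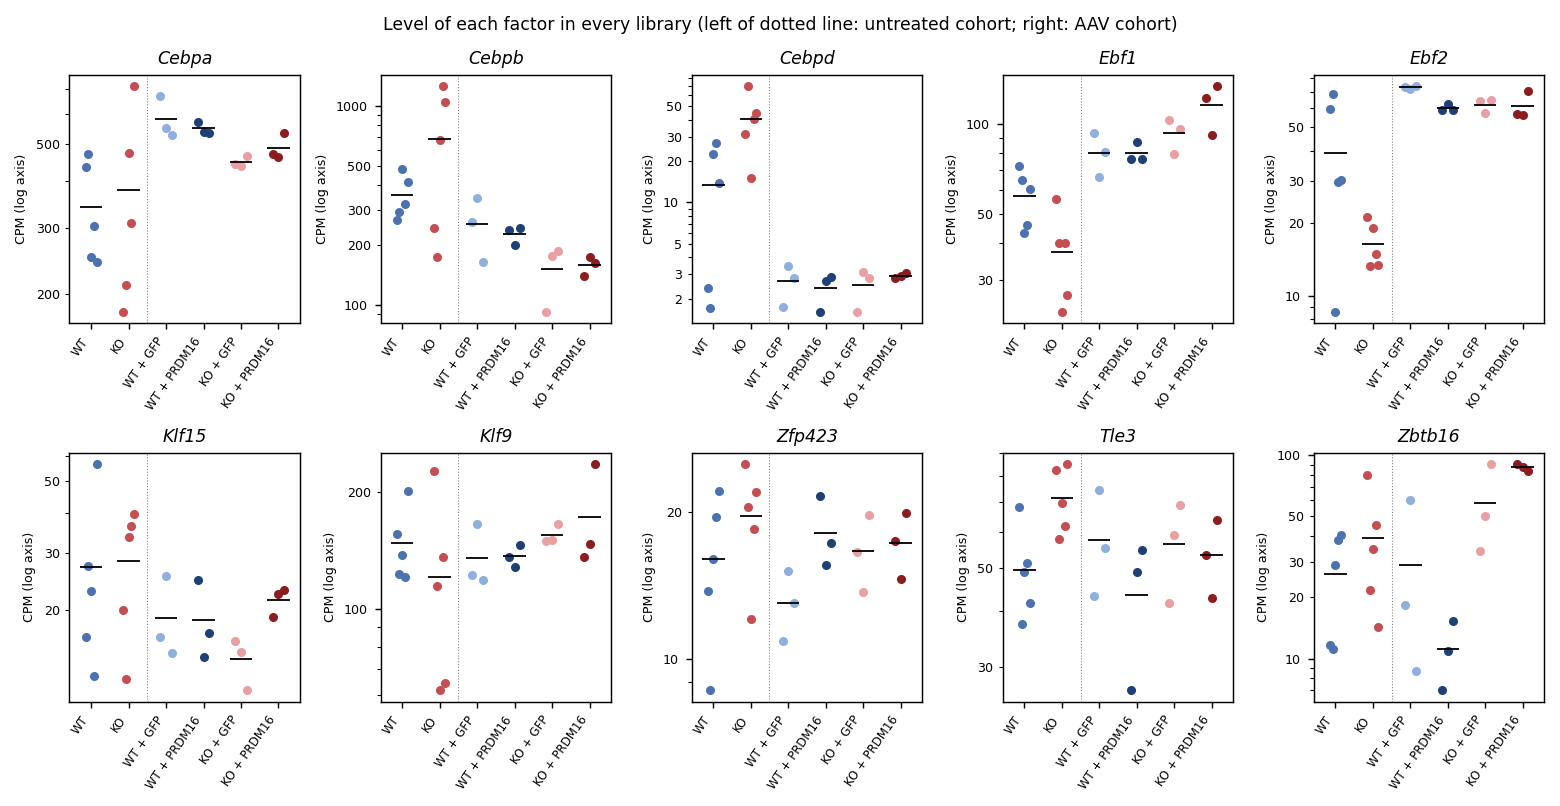
CPM (log axis) of each of the 10 factors in every library, by group, with the untreated cohort left and the AAV cohort right of the dotted line. Points are libraries and lines are group means. The 3 KO + AAV-PRDM16 libraries of Zbtb16 sit between 83.9 and 90.5 CPM, and those of WT + AAV-PRDM16 between 6.98 and 15.4 CPM.

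All 10 factors passed the filter on low counts in both cohorts and entered edgeR's quasi-likelihood test, with 17869 genes tested for untreated and 18899 for AAV mice. A factor was called at an adjusted p of at most 0.05 over all genes. Of 9 comparisons, 1 gave a call. That was Zbtb16, which was higher in KO than WT when both viruses were averaged, where 1 of 10 factors was called against 2.18% of all genes. At an unadjusted p of at most 0.05 the same comparison held 4 factors (Ebf1 and Zbtb16 higher, Cebpa and Cebpb lower), against 18.3% of all genes. No factor had 6 KO libraries apart from 6 WT libraries, against 2.71% of all genes.

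In AAV-GFP mice 0 factors were called between KO and WT (0.0529% of all genes), 3 were at an unadjusted p of at most 0.05 (Cebpa, Cebpb and Ebf2, all lower in KO; 9.18% of all genes), and 2 had groups that did not overlap (13.4%). In AAV-PRDM16 mice 0 were called (0.0476%), 2 were at an unadjusted p of at most 0.05 (Ebf1 and Zbtb16, both higher in KO; 13.7%), and 4 did not overlap (22.8%). Between AAV-PRDM16 and AAV-GFP in WT mice 0 were called (0%), 3 were at an unadjusted p of at most 0.05 (7.29%) and 2 did not overlap (14.2%). In KO mice these counts were 0 (0%), 1 (6.41%) and 1 (9.43%). KO + AAV-PRDM16 against WT + AAV-GFP gave 0 called (0.00529%), 6 at an unadjusted p of at most 0.05 (7.93%) and 2 without overlap (13.2%). The mean effect of the virus over both genotypes gave 0 called (0.037%), 0 at an unadjusted p of at most 0.05 (9.09%) and 0 without overlap (0.561%). Prdm16, the gene delivered, was itself not called between the viruses. Its log2 fold change was 1.52 in WT (edgeR adjusted p = 0.459), 1.47 in KO (0.307) and 1.49 over both genotypes (0.0527). A count of 0 factors called between the viruses therefore does not show that the factors did not respond. The interaction of genotype and virus gave 0 called (0%) and 1 factor, Zbtb16, at an unadjusted p of at most 0.05 (3.19%). In the untreated cohort 0 were called (0%), 4 were at an unadjusted p of at most 0.05 (15.9%) and 0 did not overlap (1.4%). DESeq2 and limma-voom called 1 factor with AAV-PRDM16 (Zbtb16), and called 4 and 2 factors over both viruses. In the other 7 comparisons both called 0. Comparisons that share a group of libraries are not independent of each other.

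**Figure D2:**
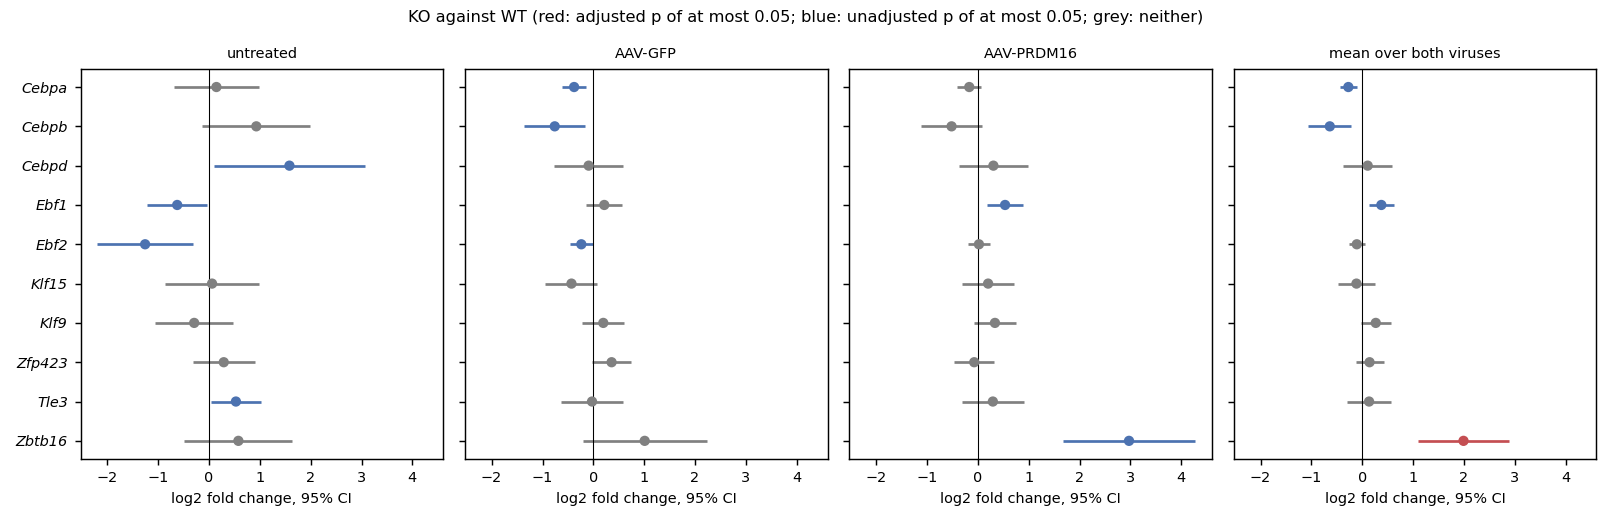
Log2 fold change of KO against WT (horizontal axis, with 95% confidence interval) for each factor in the untreated cohort, with AAV-GFP, with AAV-PRDM16 and averaged over both viruses. Red marks an adjusted p of at most 0.05, blue an unadjusted p of at most 0.05. Zbtb16 at 1.99 in the last panel is the only red point.

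Zbtb16 (ENSMUSG00000066687, GRCm38 chr9:48654297-48836222, minus strand) was higher in KO. In the AAV-GFP groups, WT replicates 1 to 3 held 18.3, 59.9 and 8.665 CPM and KO replicates 33.95, 50.55 and 90.3 CPM. In the AAV-PRDM16 groups, WT replicates held 6.98, 10.95 and 15.4 CPM and KO replicates 90.5, 87.5 and 83.9 CPM. The 5 lowest libraries were WT, and WT + AAV-GFP replicate 2 was above 2 of the 6 KO libraries. Averaged over both viruses, the log2 fold change of KO against WT was 1.99 ± 0.408 (SE, 95% CI 1.10 to 2.88, n = 6 and 6), with an edgeR adjusted p of 0.0325 and a two-sided exact permutation p of 0.00649. With AAV-PRDM16 alone it was 2.97 ± 0.601 (SE, n = 3 and 3), the groups did not overlap, and the edgeR adjusted p was 0.0909. With AAV-GFP alone it was 1.01 ± 0.561 (edgeR adjusted p = 0.647). The smallest exact p that 3 libraries against 3 allow is 0.1. The call over both viruses rested on nearly every library. Leaving out any single library other than WT + AAV-GFP replicate 2 or KO + AAV-GFP replicate 1 ended it (10 of 12 libraries, edgeR adjusted p 0.0526 to 0.0911), while the log2 fold change stayed between 1.76 and 2.54 over all 12. In those 10 fits 89 to 319 of all genes were called, against 412 with every library kept. Library totals without TMM factors (edgeR adjusted p = 0.0791) and leaving out both libraries with high muscle markers (0.0553, chosen after seeing the data) ended the call of Zbtb16 as well. DESeq2 called Zbtb16 in both comparisons (adjusted p = 0.00107 over both viruses and 0.00148 with AAV-PRDM16), and so did limma-voom with sample weights (0.00611 and 0.0157).

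**Figure D3:**
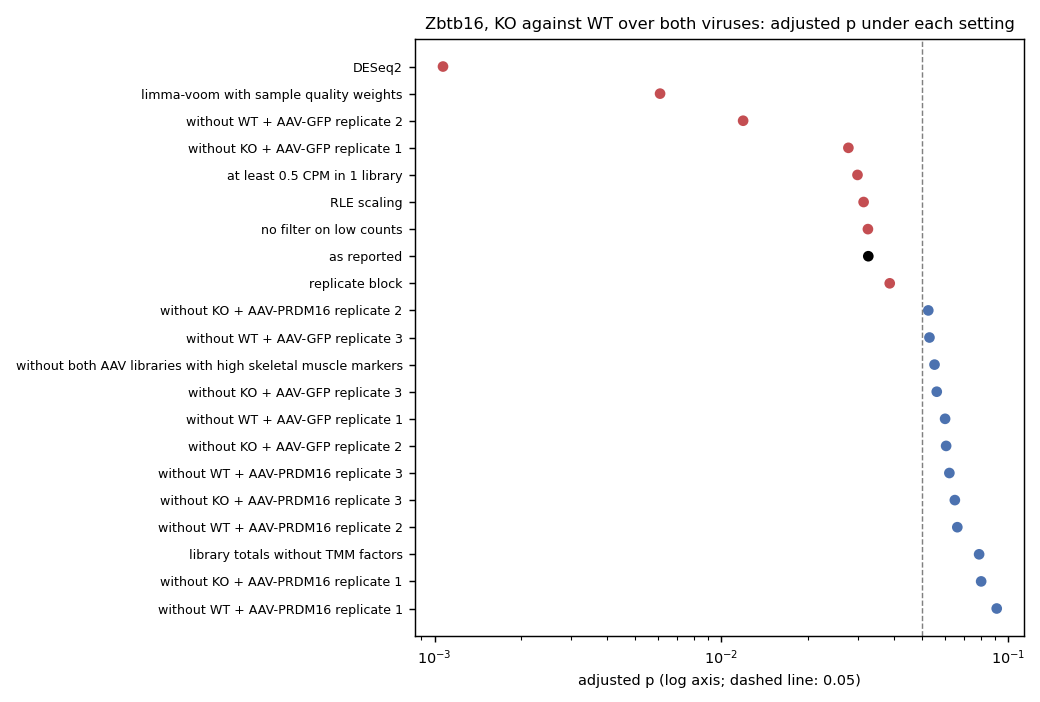
Adjusted p (log axis) of Zbtb16 for KO against WT over both viruses under each processing setting or with each library left out. The black point is the value reported, the dashed line is 0.05, red points are at or under it and blue points above it. The blue points lie between 0.0526 and 0.0911.

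Zbtb16 was also the only factor whose response to AAV-PRDM16 had an unadjusted p of at most 0.05 for a difference between genotypes. AAV-PRDM16 against AAV-GFP gave a log2 fold change of -1.38 ± 0.57 (SE, unadjusted p = 0.0318, edgeR adjusted p = 0.624) in WT and of 0.58 ± 0.5565 (edgeR adjusted p = 1) in KO. The difference of 1.96 ± 0.796 had an unadjusted edgeR p of 0.0294 and an adjusted p of 1. WT + AAV-GFP replicate 2, whose 59.9 CPM lay far above the other WT libraries, moved these values more than any other library did. Without it the virus gave -0.28 in WT, the difference was 0.86 (unadjusted p = 0.151), and KO against WT with AAV-GFP was 2.11 (edgeR adjusted p = 0.306). In untreated mice Zbtb16 was at 11.7, 11.15, 29.0, 38.5 and 40.6 CPM in WT replicates 1 to 5 and at 79.6, 21.8, 34.6, 45.25 and 14.4 CPM in KO replicates 1 to 5. These groups overlapped (log2 fold change 0.58, edgeR adjusted p = 0.511), and the highest value was that of KO replicate 1, the library with Cpeb2 at the WT level. Without KO replicate 1 the value was 0.15. Innate lymphocytes also express Zbtb16. The 13 markers of such cells summed to 28.6 to 40.4 CPM in WT + AAV-GFP, 23.9 to 25.95 in WT + AAV-PRDM16, 31.9 to 46.5 in KO + AAV-GFP and 24.9 to 27.1 CPM in KO + AAV-PRDM16, most of it from Rora, which other cells also express and which was at 22.3 to 23.5 CPM on average in all 4 groups. By single genes, the median log2 fold change of the innate lymphocyte list with AAV-PRDM16 was -3.39 in WT, where 9 of 13 genes were lower at an unadjusted p of at most 0.05, and -2.88 in KO, where 10 were. Zbtb16 gave -1.38 and 0.58 in these comparisons. In KO against WT with AAV-PRDM16 the list had a median of 0.45, with 9 of 13 values positive and 1 higher at an unadjusted p of at most 0.05. Il2rb, a cytokine receptor of these cells, was at 0.4661 to 7.29 CPM in WT + AAV-GFP, 0.183 to 0.299 in WT + AAV-PRDM16, 2.39 to 8.77 in KO + AAV-GFP and 0.278 to 1.17 CPM in KO + AAV-PRDM16. Tbx21, their T-box factor, was at 1.42 to 2.2, 0.951 to 1.09, 0.909 to 1.87 and 0.785 to 1.16 CPM in the same order. Ncr1, a natural killer cell receptor named outside the rule for listed genes as the marker that was at 0 in a whole group, was at 0 in all WT + AAV-PRDM16 libraries. The part of these cells in the values of Zbtb16 was not tested.

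Cebpa (ENSMUSG00000034957, chr7:35119293-35121928, plus strand) was at 670.4, 551 and 529 CPM in WT + AAV-GFP and at 443.5, 437 and 465 CPM in KO + AAV-GFP. With AAV-PRDM16 it was at 574, 539.7 and 536.5 CPM in WT and at 470.5, 463 and 535.5 CPM in KO. The KO libraries were below the WT libraries within each virus, in the second pair by 1 CPM. The log2 fold change of KO against WT was -0.38 ± 0.109 with AAV-GFP and -0.17 ± 0.109 with AAV-PRDM16. Over both viruses it was -0.27 ± 0.0772 (SE, 95% CI -0.44 to -0.11), with an edgeR adjusted p of 0.0848 and an exact permutation p of 0.00433. DESeq2 (adjusted p = 0.0146) and limma-voom (0.0239) called this value, and edgeR did not. In untreated mice the value was positive and the groups overlapped (0.15 ± 0.385, edgeR adjusted p = 0.845), with WT from 243 to 470.4 CPM and KO from 179.7 to 713 CPM. Without KO replicate 5 it was -0.22.

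Cebpb (ENSMUSG00000056501, chr2:167688915-167690418, plus strand) was at 260.0, 344 and 162.9 CPM in WT + AAV-GFP, 236, 199.6 and 241.5 in WT + AAV-PRDM16, 91.7, 176 and 185 in KO + AAV-GFP and 139, 173 and 162 CPM in KO + AAV-PRDM16. WT + AAV-GFP replicate 3 lay among the KO libraries, and the other 5 WT libraries lay above all 6 KO libraries. Over both viruses the log2 fold change of KO against WT was -0.64 ± 0.1935 (edgeR adjusted p = 0.101, exact permutation p = 0.0108), and DESeq2 called it (adjusted p = 0.0162). In untreated mice the difference pointed the other way without passing any threshold. WT replicates were at 268, 292, 483, 322 and 415 CPM and KO replicates at 242, 173, 671, 1260 and 1047 CPM, so that KO held both the lowest 2 and the highest 3 values (log2 fold change 0.93 ± 0.488, edgeR adjusted p = 0.342). Once Y-linked transcripts entered the model as a covariate, this became 0.31. Cebpb shares 312 exon bases with Tmem189 on the other strand, whose summed count was small beside its own (22956 against 259218 in the AAV cohort).

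Cebpd (ENSMUSG00000071637, chr16:15887286-15891031, plus strand) was at 1.60 to 3.48 CPM in all 12 AAV libraries, and neither genotype nor virus separated them (KO against WT over both viruses 0.11 ± 0.22, edgeR adjusted p = 0.852). In untreated mice it was at 2.41, 1.71, 22.4, 27.1 and 13.7 CPM in WT replicates 1 to 5 and at 31.45, 70.25, 15.1, 40.5 and 44.5 CPM in KO replicates 1 to 5. WT replicates 1 and 2 were thus at the level of the AAV cohort and below every other untreated library. KO against WT gave 1.58 ± 0.681 (95% CI 0.11 to 3.06), an unadjusted p of 0.0375, an edgeR adjusted p of 0.308 and an exact permutation p of 0.0317. Without WT replicates 1 and 2 it was 0.99, with an unadjusted edgeR p of 0.0572. Cebpd shares 562 exon bases with Spidr on the other strand. Counting by strand is not stated, and in the AAV cohort Spidr held more counts than Cebpd (9671 against 3407), so its level there is uncertain.

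Ebf1 (ENSMUSG00000057098, chr11:44617317-45008091, plus strand) was at 93.5, 66.4 and 80.3 CPM in WT + AAV-GFP, 76.6, 87.2 and 76.4 in WT + AAV-PRDM16, 103, 79.5 and 96.0 in KO + AAV-GFP and 122, 91.8 and 134 CPM in KO + AAV-PRDM16. The KO + AAV-PRDM16 libraries lay above the WT + AAV-PRDM16 libraries (log2 fold change 0.54 ± 0.161, unadjusted p = 0.00595, edgeR adjusted p = 0.184). Over both viruses KO against WT gave 0.38 ± 0.114 (edgeR adjusted p = 0.1, exact permutation p = 0.0173), and DESeq2 called it (adjusted p = 0.0280). In untreated mice the sign was the opposite. WT replicates were at 72.5, 64.8, 43.1, 45.9 and 60.4 CPM and KO replicates at 56.0, 39.85, 23.5, 40.0 and 26.8 CPM, with overlap only through KO replicate 1 (log2 fold change -0.62 ± 0.271, edgeR adjusted p = 0.308, exact permutation p = 0.0397). KO replicate 1 is the library with Cpeb2 at the WT level. With single libraries left out the untreated value lay between -0.82 and -0.50 (edgeR, unadjusted p 0.00858 to 0.0974, adjusted p 0.16 to 0.61). Without WT replicates 1 and 2 the value was -0.37 (unadjusted p = 0.240), and with Y-linked transcripts as covariate it was -0.54 (unadjusted p = 0.0931). The difference between the cohorts was not tested.

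Ebf2 (ENSMUSG00000022053, chr14:67233292-67430918, plus strand), the EBF of brown fat, had a coefficient of variation of 1.54% to 13.4% within the AAV groups. It was at 73.2, 71.9 and 74.1 CPM in WT + AAV-GFP, and every library of the other 3 AAV groups was below these, at 56.0 to 70.5 CPM. AAV-PRDM16 against AAV-GFP in WT gave -0.28 ± 0.102 (unadjusted p = 0.0168, edgeR adjusted p = 0.550), and KO against WT with AAV-GFP gave -0.24 ± 0.102 (unadjusted p = 0.0379, edgeR adjusted p = 0.520). The 2 comparisons share the WT + AAV-GFP libraries. In untreated mice Ebf2 was at 59.2, 68.4, 8.59, 29.6 and 30.1 CPM in WT replicates 1 to 5 and at 21.2, 13.3, 19.1, 14.9 and 13.5 CPM in KO. WT replicates 1 and 2 were at the level of the AAV cohort, and WT replicate 3 was below every KO library. KO against WT gave -1.255 ± 0.4355 (unadjusted p = 0.0132, edgeR adjusted p = 0.305, exact permutation p = 0.135). With single libraries left out it lay between -1.51 and -0.96 (edgeR, unadjusted p 3.89e-04 to 0.0431, adjusted p 0.163 to 0.61). Without WT replicates 1 and 2 it was -0.40, with an unadjusted p of 0.294, and among libraries without Y-linked transcripts (chosen after seeing the data) it was -0.15.

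Klf15 (ENSMUSG00000030087, chr6:90462576-90475238, plus strand), whose promoter window held 3 E-boxes, was at 16.1, 14.8 and 11.3 CPM in KO + AAV-GFP and at 19.0, 22.5 and 23.05 CPM in KO + AAV-PRDM16, without overlap (log2 fold change 0.61 ± 0.2355, unadjusted p = 0.0228, edgeR adjusted p = 0.592). In WT it was at 16.6, 25.55 and 14.7 CPM with AAV-GFP and at 24.8, 14.3 and 17.0 CPM with AAV-PRDM16, where the groups overlapped (-0.02 ± 0.234). The difference between these responses was 0.63 ± 0.332, with an unadjusted p of 0.0803. KO against WT over both viruses gave -0.11 ± 0.166 (edgeR adjusted p = 0.775). In untreated mice Klf15 ran from 12.5 to 56.6 CPM in WT (median 22.9) and from 12.2 to 39.7 CPM in KO (median 33.7), with overlap (0.06 ± 0.423, edgeR adjusted p = 0.946).

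Klf9 (ENSMUSG00000033863, chr19:23141226-23168134, plus strand) was at 122, 165 and 119 CPM in WT + AAV-GFP, 136, 128 and 146 in WT + AAV-PRDM16, 149.6, 150.2 and 166 in KO + AAV-GFP and 136, 147 and 236 CPM in KO + AAV-PRDM16. Groups overlapped in every pair that differed in genotype alone. KO against WT over both viruses gave 0.27 ± 0.135 (95% CI -0.03 to 0.56, edgeR adjusted p = 0.325). In untreated mice it was at 121 to 201 CPM in WT and 61.8 to 227 CPM in KO (-0.29 ± 0.352, edgeR adjusted p = 0.656). The highest KO value was again that of replicate 1. With single libraries left out the untreated value lay between -0.65 and -0.13 (edgeR, unadjusted p 0.0554 to 0.723, adjusted p 0.233 to 0.889).

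Zfp423 (ENSMUSG00000045333, chr8:87661810-87959595, minus strand) was at 10.9, 15.2 and 13.0 CPM in WT + AAV-GFP and at 21.6, 15.6 and 17.3 CPM in WT + AAV-PRDM16, without overlap (log2 fold change 0.48 ± 0.178, unadjusted p = 0.0198, edgeR adjusted p = 0.561). In KO it was at 16.6, 13.8 and 19.75 CPM with AAV-GFP and at 17.4, 14.6 and 19.9 CPM with AAV-PRDM16, with overlap (0.05 ± 0.178). The difference between the responses, -0.43 ± 0.252, had an unadjusted p of 0.114. KO against WT gave 0.14 ± 0.126 over both viruses and 0.29 ± 0.282 in untreated mice, where WT ran from 8.65 to 22.1 CPM and KO from 12.1 to 25.1 CPM.

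Tle3 (ENSMUSG00000032280, chr9:61372366-61418497, plus strand), whose promoter window held 1 E-box, was at 43.3, 74.5 and 55.4 CPM in WT + AAV-GFP, 26.65, 48.9 and 54.9 in WT + AAV-PRDM16, 41.8, 59.2 and 68.95 in KO + AAV-GFP and 53.4, 42.9 and 64.0 CPM in KO + AAV-PRDM16. All 4 groups overlapped (KO against WT over both viruses 0.13 ± 0.1965, edgeR adjusted p = 0.776). In untreated mice WT replicates were at 68.2, 37.4, 48.9, 51.3 and 41.7 CPM and KO replicates at 82.55, 58.1, 69.6, 62.1 and 85.2 CPM. WT replicate 1 was the only WT library above any KO library (0.53 ± 0.225, unadjusted p = 0.0351, edgeR adjusted p = 0.305, exact permutation p = 0.0238). Without WT replicates 1 and 2 the value was 0.65, and over all settings it lay between 0.44 and 0.75.

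**Figure D4:**
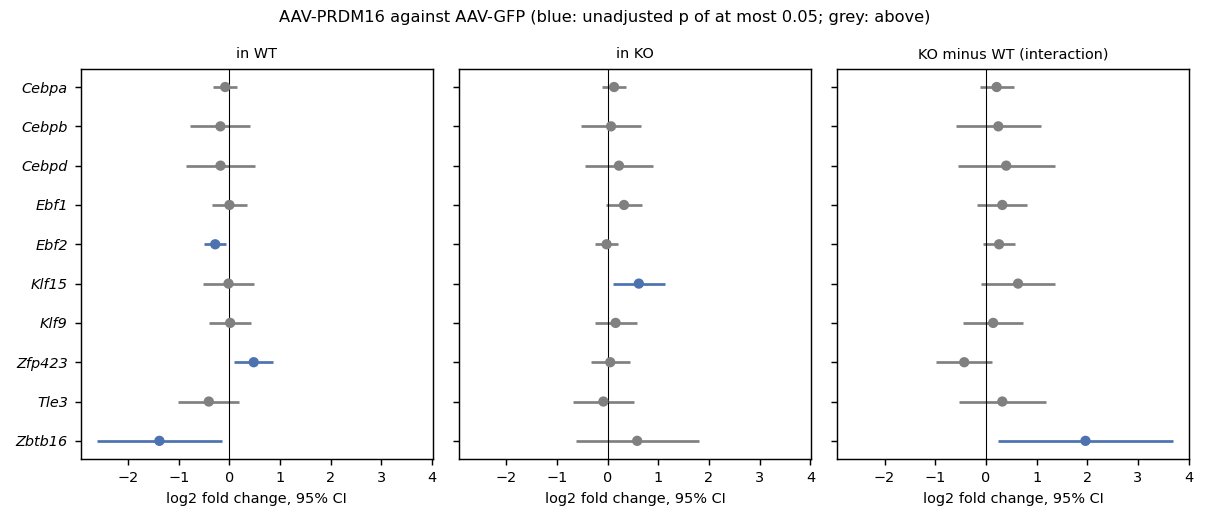
Log2 fold change of AAV-PRDM16 against AAV-GFP (horizontal axis, with 95% confidence interval) for each factor in WT, in KO, and the difference KO minus WT. Blue marks an unadjusted p of at most 0.05. These are Ebf2, Zfp423 and Zbtb16 in WT, Klf15 in KO, and Zbtb16 at 1.96 for the difference.

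In the direct comparison of KO + AAV-PRDM16 with WT + AAV-GFP, Zbtb16 (log2 fold change 1.59), Ebf1 (0.54) and Zfp423 (0.41) had positive and Cebpb (-0.69), Ebf2 (-0.26) and Cebpa (-0.25) negative values at an unadjusted p of at most 0.05, with edgeR adjusted p-values from 0.460 to 0.616. Over both genotypes the virus gave values from -0.40 (Zbtb16) to 0.30 (Klf15), and the smallest edgeR adjusted p was 0.578. The value of Zbtb16 turned to 0.15 without WT + AAV-GFP replicate 2 and to 0.029 with limma-voom.

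By edgeR 0 markers of other cell types were called between the viruses, but many had an unadjusted p of at most 0.05. In WT, 12 of 19 T and B lymphocyte markers (median log2 fold change -2.22), 9 of 13 innate lymphocyte markers and 8 of 12 macrophage markers (median -0.89) were lower with AAV-PRDM16 at an unadjusted p of at most 0.05, against 5.19% of all genes. In KO these were 13 of 19 (median -2.64), 10 of 13 and 10 of 12 (median -1.28), against 5.1% of all genes. Skeletal muscle markers had a median of 2.54 in WT, with 1 of 17 higher at this p, and of -4.13 in KO, with 6 of 17 lower. Their sums ran from 39.8 to 43.25 CPM in WT + AAV-GFP and from 34.8 to 76.2 CPM in WT + AAV-PRDM16. In KO they ran from 39.0 to 164.5 CPM with AAV-GFP and from 39.7 to 45.6 CPM with AAV-PRDM16. The highest sums were those of KO + AAV-GFP replicate 1 and WT + AAV-PRDM16 replicate 2. Ckm, Myh4, Myh1 and Pvalb had no counts in WT + AAV-GFP. Summed T and B lymphocyte markers ran from 6.26 to 29.8 CPM in WT + AAV-GFP, 4.12 to 5.80 in WT + AAV-PRDM16, 13.7 to 46.6 in KO + AAV-GFP and 5.12 to 6.92 CPM in KO + AAV-PRDM16. The part of these cells in the values of Ebf2, Zfp423 and Zbtb16 in WT and of Klf15 in KO was not tested.

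Other genes of the same program were read from lists. Of 25 further family members, 23 were tested in the AAV cohort and 0 were called between KO and WT over both viruses (median log2 fold change 0.00, against 0.01 over all genes; 3 higher and 1 lower at an unadjusted p of at most 0.05, against 9.54% higher and 8.76% lower over all genes). The most abundant, Zbtb7b, Zbtb7a and Cebpg, gave -0.19, -0.01 and -0.05. Of 24 other activators of adipogenesis, 1 was called, Lpin1 (0.65 ± 0.149, edgeR adjusted p = 0.0475), a phosphatidate phosphatase and PPARgamma coactivator. The list had a median of -0.06, and 17 of its 24 values were negative. At an unadjusted p of at most 0.05, 2 activators were higher and 6 lower. Pparg itself, named here outside the rule for listed genes because the C/EBP factors act through it, was at 171 to 199 CPM in WT + AAV-GFP and at 176 to 228 CPM in KO + AAV-GFP (0.06 over both viruses, edgeR adjusted p = 0.862). Of 23 repressors of adipogenesis 0 were called (median 0.06, 4 higher and 1 lower at an unadjusted p of at most 0.05, with Ctnnb1 at 0.05, Ncor1 at 0.09 and Foxo1 at 0.57). Of 22 adipocyte genes bound by C/EBP and PPAR factors 0 were called (median -0.09, 1 higher and 5 lower at an unadjusted p of at most 0.05). Their most abundant members gave 0.14 for Scd1, -0.05 for Gpd1 and -0.28 for Pck1. In untreated mice 0 genes of these 4 lists were called, and the genes at an unadjusted p of at most 0.05 were 2 of the family members (both lower), 5 of the activators (all lower), 4 of the repressors (1 higher, 3 lower) and 0 of the targets. Over all genes 4.99% were higher and 10.9% lower at this p.

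Of 18 glucocorticoid-responsive genes, the list read because Cebpd, Klf9, Klf15 and Zbtb16 are known responders, 3 were called higher in KO over both viruses and 0 lower, where 2.18% of all genes were called in either direction. At an unadjusted p of at most 0.05, 8 were higher and 1 lower (9.54% and 8.76% of all genes). The median of the list was 0.48, against 0.01 over all genes tested. Fkbp5, a cochaperone of the glucocorticoid receptor, was at 2.78, 6.47 and 3.65 CPM in WT + AAV-GFP, 1.26, 3.12 and 4.30 in WT + AAV-PRDM16, 13.0, 20.05 and 15.15 in KO + AAV-GFP and 11.7, 19.3 and 20.55 CPM in KO + AAV-PRDM16. Every KO library was above every WT library (2.23 ± 0.294, edgeR adjusted p = 0.00811). Sult1a1, a sulfotransferase, was at 10.5 to 23.9 CPM in WT and at 30.8 to 36.7 CPM in KO (0.95 ± 0.119, edgeR adjusted p = 0.00590). Lpin1 was the remaining one. Summed over the 18 genes, the list was at 3166 to 3975 CPM in WT + AAV-GFP and 3386 to 3784 CPM in WT + AAV-PRDM16. It was at 3005 to 3393 CPM in KO + AAV-GFP and 3063 to 3422 CPM in KO + AAV-PRDM16. Pdk4, Lpin1 and Angptl4 were the most abundant. Of the other responders among the factors, Cebpd gave 0.11, Klf15 -0.11 and Klf9 0.27 over both viruses, none called. A link of Zbtb16 to this list was not tested. In untreated mice 0 of the 18 were called (4 higher and 0 lower at an unadjusted p of at most 0.05, against 4.99% and 10.9% of all genes, with a median of 0.63 against 0.04).

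**Figure D5:**
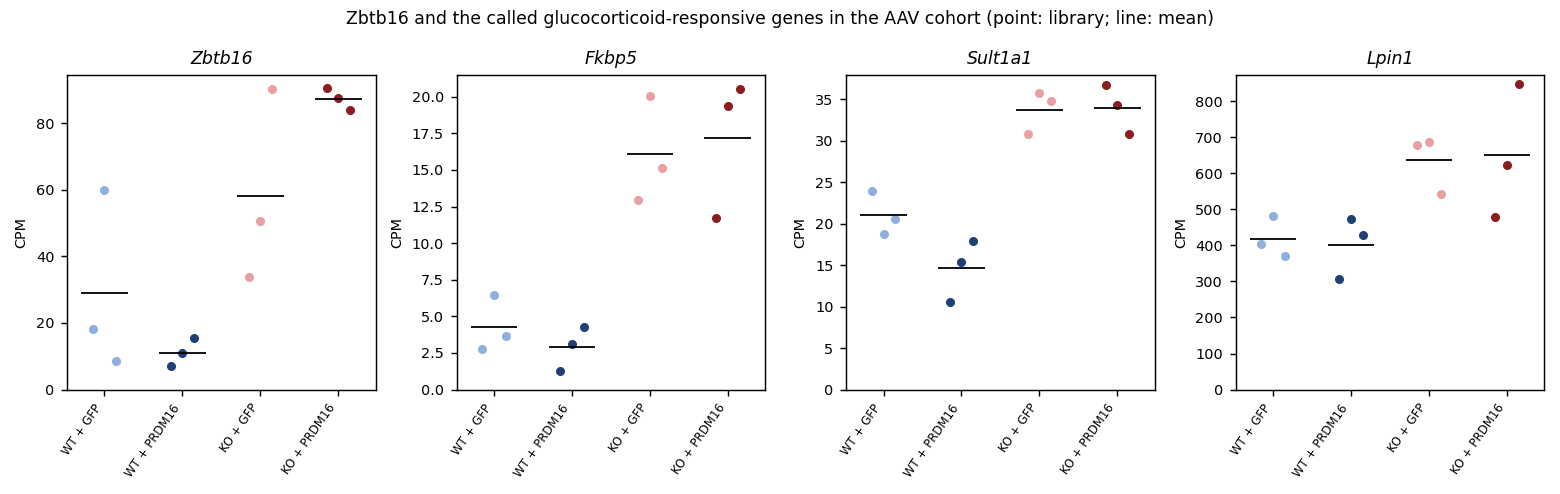
CPM of Zbtb16, Fkbp5, Sult1a1 and Lpin1 in the 12 AAV libraries by group. Points are libraries and lines are group means. For Fkbp5 the WT libraries lie at or under 6.47 CPM and the KO libraries at or above 11.7 CPM, and for Zbtb16 WT + AAV-GFP replicate 2 at 59.9 CPM lies among the KO libraries.

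Markers of other cell types moved in the same comparison, where 2.18% of all genes were called and 9.54% were higher and 8.76% lower at an unadjusted p of at most 0.05. Over both viruses, 5 of 12 macrophage markers were called higher in KO (median 1.004; Cd163, Mrc1, Csf1r and Itgam among them, with Cd163 at 1.23 and edgeR adjusted p = 0.00950), as were 4 of 16 preadipocyte and fibroblast genes (median 0.44; Cd34 at 0.99, Fn1 at 0.66, Col3a1 at 0.67 and Col1a1 at 0.72), and 3 of 16 brown fat genes were called lower (median -0.31; Cox7a1 at -0.63, Cox8b at -0.66 and Cidea at -0.39). Summed macrophage markers ran from 66.1 to 142 CPM in WT + AAV-GFP, from 48.4 to 60.15 CPM in WT + AAV-PRDM16, from 166 to 419.5 CPM in KO + AAV-GFP and from 91.2 to 112 CPM in KO + AAV-PRDM16. The part of these cells in the values of Zbtb16, Cebpa, Cebpb and Ebf1 was not tested. Of 9 white fat genes tested, Psat1, a serine synthesis enzyme, was called higher (0.82, edgeR adjusted p = 0.0378). The 9 values split into 5 positive and 4 negative, with a median of 0.0055. By edgeR 0 of the 12 endothelial, 19 T and B lymphocyte, 13 innate lymphocyte and 17 skeletal muscle markers and 18 circadian clock genes tested were called in this comparison, with 8, 1, 2, 0 and 1 at an unadjusted p of at most 0.05. The medians were 0.37, 0.25, 0.42, 0.85 and -0.05. In untreated mice KO against WT gave positive values for 20 of 20 skeletal muscle (median 1.85) and 12 of 12 macrophage markers (median 0.73). Of these, 0 had an unadjusted p of at most 0.05 (4.99% higher and 10.9% lower over all genes). For T and B lymphocyte, innate lymphocyte and endothelial markers 14 of 17, 9 of 10 and 7 of 12 were positive. The part of these cells in the untreated values of the factors was not tested.

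Within groups the factors were compared with each other after subtraction of each group's mean. None of the 45 pairs reached an adjusted p of 0.05 in either cohort by permutation, with 6 untreated and 2 AAV pairs at an unadjusted p of at most 0.05. Over the 12 AAV libraries the highest correlation was that of Cebpd and Tle3 (Pearson's r = 0.883, Spearman's rho = 0.853, both with an exact permutation p of 0.00694 and an adjusted p of 0.312), and without the 2 libraries farthest from the median r was 0.864. Over the 10 untreated libraries Cebpd and Ebf2 gave r = -0.785 and rho = -0.806 (permutation p = 0.0241 and 0.00918, adjusted p = 0.249 and 0.413), and without the 2 farthest libraries, r was -0.577. The genes with the profile most like that of Zbtb16 within AAV groups, of 17197 genes, were Snx15 (r = 0.939) and Entr1 (r = 0.917), which gave -0.145 and 0.679 over the untreated libraries. These are descriptions without a test.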

How the data were processed

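RNA from BAT of 22 mice was sequenced from SureSelect XT HS2 mRNA libraries. Per the labels, the authors used bcl2fastq 2.20, Trimmomatic 0.36 and HISAT2 with GRCm38.p6, and deposited raw counts per gene in 1 table for each cohort, which are the values used. The counting tool, annotation and treatment of strand are not given in the sources used here, and 0 columns had no sample. Identifiers were matched to GENCODE mouse symbols, and the counts were tested in edgeR 4.0.16 (R 4.3.3) with TMM scaling, its filter on low counts, the quasi-likelihood test over all genes of a cohort and Benjamini-Hochberg adjustment at 0.05. The untreated groups were fitted in 1 model and the 4 AAV groups in another, so that AAV groups share 1 estimate of the spread. Log2 CPM used a prior count of 2. Exact permutation tests over libraries were two-sided, and their smallest p is 0.00794 for 5 against 5 and 0.00216 for 6 against 6. Replicates are mice that the labels give as separate samples, and p-values measure the spread between them.

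The factors and lists were chosen with earlier results of these data known. Of each list, genes called in a comparison were named (at most 4 by adjusted p), and otherwise up to 3 of the highest mean CPM. All 10 factors were named. Alternatives were DESeq2 1.42.0, limma 3.58.1 (voom with sample weights), other scalings and filters, the replicate number as a block, the 2 groups alone, an adjusted p of 0.1 and each library left out. Scripts were tested on simulated data. Presence of Y-linked transcripts meant a summed level above 10 CPM.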

Additional observations from a re-analysis of the deposited data

Results flagged for a closer look

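The effect of AAV-PRDM16 on Zbtb16 differed between genotypes at an unadjusted p, with a log2 difference of 1.96 ± 0.796 between KO and WT (edgeR, unadjusted p = 0.0294, adjusted p = 1). Zbtb16 went from 18.3, 59.9 and 8.665 CPM with AAV-GFP to 6.98, 10.95 and 15.4 CPM with AAV-PRDM16 in WT, and from 33.95, 50.55 and 90.3 CPM to 90.5, 87.5 and 83.9 CPM in KO. Without WT + AAV-GFP replicate 2 the difference was 0.86 (unadjusted p = 0.151). Among the 20 groups of 5 untreated values of the factors, 0 held a value outside Dixon's limit, where chance alone would mark about 1 in 20.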

How the results depend on the processing

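Of 448 log2 fold changes recomputed without 1 library, 426 kept their direction and their side of the threshold, as did 336 of 349 under other settings. Only 1 of the 39 results behind these values was called as reported, so the others had little room to change side. That call, Zbtb16 over both viruses, was lost without 10 of 12 libraries, each left out in turn. The number of all genes called fell too in those fits, from 412 to between 89 and 319. The number of factors called over both viruses, 1 as reported, was 2 at an adjusted p of 0.1, 2 with limma-voom, 4 with DESeq2, 0 with library totals without TMM factors, 0 without both libraries of high muscle markers (chosen after seeing the data), and 0 to 1 with single libraries left out. With AAV-PRDM16 it was 0 as reported and 1 at an adjusted p of 0.1, with limma-voom, with DESeq2 and with only both groups fitted, and 0 to 1 with single libraries left out. In these settings the number of all genes called differed as well (412 with edgeR, 1269 with limma-voom and 1593 with DESeq2 over both viruses). Signs turned for 5 values, none of them called. Klf15 in untreated mice (0.06) was -0.029 without WT replicates 1 and 2, -0.41 with Y-linked transcripts as covariate, -0.26 in libraries without them (chosen after seeing the data) and -0.12 to 0.51 with single libraries left out. Cebpa in untreated mice ran from -0.22 to 0.34, Cebpd over both viruses from -0.0091 to 0.22, and Klf15 over both viruses from -0.20 to 0.024 with single libraries left out. For Zbtb16 the mean effect of the virus, -0.40 as reported, was 0.029 with limma-voom and -0.62 to 0.15 with single libraries left out. Where a value or call moved, the cause was not tested.

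Replicate numbers did not pair the mice (correlation of deviations -0.292 to 0.111 over 5 untreated pairs, with 1 over 0.1, and -0.0912 to 0.154 over 18 AAV pairs, with 2 over 0.1). With the number as a replicate block, 1 factor was again called over both viruses, Zbtb16 (edgeR adjusted p = 0.0386), with 344 genes called of all, and 0 in the other 8 comparisons. The untreated cohort had the larger spread (common dispersion 0.312 against 0.0887), which limits what could be called there.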
